A study of Mus musculus with 20 samples.

Results

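Protocadherins are cadherin-related adhesion proteins of the cell surface, and neurons of the developing brain make many of them. In the table of 24551 array features (probe groups, most of them 1 per gene) analysed here, 39 features of 36 gene symbols bear a name that starts with Pcdh, and all 39 are described below. They fall into 1 feature of the alpha cluster (Pcdha10), 22 of the beta cluster (Pcdhb1 to Pcdhb22), 1 of the gamma cluster (Pcdhga12) and 15 features of 12 non-clustered genes. The symbols of all 39 features were found in the RefSeq gene table of the mouse assembly GRCm38.p6, which lists 14 alpha, 22 beta and 22 gamma symbols. The beta cluster is thus covered gene by gene and the other clusters by 1 feature each. Of the 39 features, 26 belong to genes on chromosome 18, the 24 clustered ones together with Pcdh1 and Pcdh12. None of the 39 is marked as cross-hybridising in the deposited table (0 of 39), and 39 of 39 lay above a log2 value of 4 in at least 2 arrays, as 21226 of all features did.

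The clustered genes lie in a row along the chromosome, and each neuron uses a small selection of their promoters, which gives cells different sets of adhesion proteins at the surface. Alpha and gamma genes join a variable first exon to constant exons shared by the whole cluster, so a feature named for 1 of them can take up RNA of its neighbours if its probes lie in the shared part. Beta genes are single-exon genes without a shared constant part, and several are near-identical copies, so the value of 1 beta feature may hold RNA of another. The non-clustered genes are separate transcription units outside the clusters, most of them on other chromosomes. Those of the delta-1 group, Pcdh1, Pcdh7, Pcdh9 and Pcdh11x in this set, carry tails that can bind protein phosphatase 1, and those of the delta-2 group, Pcdh8, Pcdh10, Pcdh17, Pcdh18 and Pcdh19, include genes whose tails recruit the WAVE actin regulators. Which exons the probes of a feature cover is not stated in the labels or files, so no sequence is shown.

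The study compared cortical neurons that lack Fmr1 with wild-type (WT) neurons. Fmr1 encodes FMRP, which binds many neuronal mRNAs and represses their translation, and the knockout (KO) is a model of fragile X syndrome. The neurons came from C57Bl6 embryos of day 17, grew for 8 days and were irradiated at 254 nm, which links proteins to the RNA they touch. Each of 10 cultures gave a CLIP array, of the RNA recovered by immunoprecipitation of FMRP, and an Input array, of total RNA, so the 4 groups KO CLIP, WT CLIP, KO Input and WT Input held 5 arrays each. All groups share strain, age and irradiation. KO neurons have no FMRP, so KO CLIP measures the background of the immunoprecipitation. The sex and number of embryos behind a culture are not given in the labels.

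Fmr1 itself averaged 3.92 ± 0.08 in KO CLIP and 6.49 ± 0.23 in WT CLIP, and 4.14 ± 0.16 in KO Input and 5.69 ± 0.20 in WT Input (log2, SD, n = 5 each), so the targeted gene was low in the arrays labelled KO. Array medians lay between 5.30 and 5.44. RNA was amplified before labelling, so a CLIP value shows the share of an RNA in the precipitate and not the amount recovered. A log2 difference of 1 is a 2-fold ratio, and differences are compressed near the bottom of the scale, where values began at 2.11. In WT Input, 8 neuron markers had values of 5.92 to 10.39, and 6 microglia markers had values of 4.11 to 5.86, 3 of them under 4.5. Astrocyte markers were present as well, at 5.41 to 8.63. Markers of the oligodendrocyte lineage lay at 4.99 to 8.71, of cycling progenitors at 3.19 to 7.45, and of endothelial and meningeal cells at 3.97 to 6.37. The mean of the neuron list ran from 7.89 to 8.01 in KO CLIP, 7.61 to 7.92 in WT CLIP, 7.18 to 7.88 in KO Input and 7.24 to 7.86 in WT Input, and no marker of the lists passed the test between genotypes. The mean of the astrocyte list ran from 6.02 to 6.41 in KO CLIP and 5.79 to 6.20 in WT CLIP, and from 6.46 to 6.83 in KO Input and 6.27 to 6.80 in WT Input. The astrocyte list was thus lower in CLIP than in Input without overlap in each genotype. The neuron list overlapped in WT, and in KO it was higher in CLIP by a narrow gap (7.89 against 7.88). Its markers did not all move alike. Tubb3 averaged 10.09 in KO CLIP and 10.63 in KO Input, and 9.58 in WT CLIP and 10.39 in WT Input. Slc17a7 was lower in CLIP in WT (6.96 against 7.09), and the other neuron markers were higher in CLIP in each genotype. Between cultures of mixed cells, fewer cells of a type and less RNA per cell cannot be told apart. CLIP and Input of a culture come from the same cells.

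The immunoprecipitate was compared with total RNA first, within each genotype. Several non-clustered protocadherins made up a larger share of the precipitate than of total RNA, and did so in KO neurons as well as in WT neurons. Those higher in CLIP in both genotypes were Pcdh7, both features of Pcdh9, Pcdh11x, 1 feature of Pcdh15, Pcdh17 and Pcdh19, together with Pcdha10 of the alpha cluster. A feature is called here at an adjusted p under 0.05 (limma, Benjamini-Hochberg over all features). Of the 39 features, 9 were higher and 2 lower in KO CLIP than in KO Input, against a background of 16.2% of all features called higher and 19.7% called lower. In WT, 11 were higher and 1 lower in CLIP than in Input, against a background of 17% called higher and 17.9% called lower. The 8 features higher in both genotypes stand against 13.3% of all features, and 0 were lower in both, against 12.3%. The median log2 difference of the 39 features was 0.09 in KO and 0.16 in WT, where that of all features was −0.13 in KO and −0.095 in WT. With 1 array left out, the KO median of the 39 ran from 0.046 (without KO Input 4) to 0.18 (without KO Input 3), and it was 0.20 with quantile normalization. The part of the shift in the means of the neuron and astrocyte lists between CLIP and Input in these differences was not tested.

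The classes differed in what was called. Of the 15 non-clustered features, 7 were higher and 0 lower in KO CLIP than in KO Input, with a median of 0.30 and a range of −0.32 to 1.51. In WT, 8 were higher and 1 lower, with a median of 0.46 and a range of −0.53 to 1.50. Of the 22 beta features, 1 was higher and 2 lower in KO, with a median of 0.003 and a range of −0.44 to 0.52, and 2 were higher and 0 lower in WT, with a median of 0.005 and a range of −0.36 to 0.60. In each genotype 11 beta features lay above 0 and 11 below. By group, the 5 delta-1 features had medians of 0.83 in KO and 1.01 in WT, and the 6 delta-2 features had medians of 0.28 and 0.41. These class values are a description and carry no test of one class against another.

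**Figure D1:**
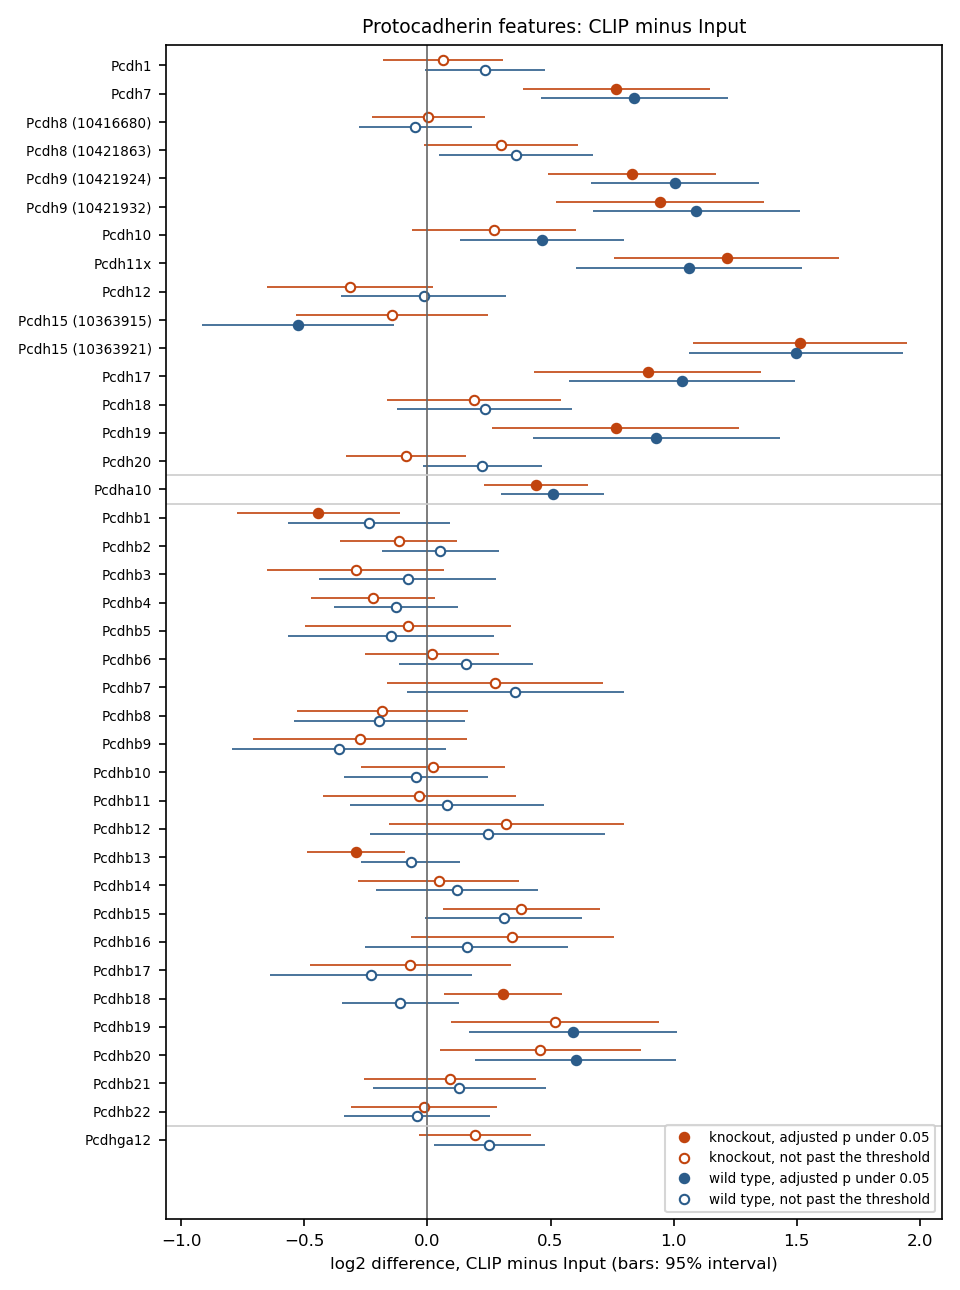
Log2 difference, CLIP minus Input, of each of the 39 protocadherin features, in knockout (upper point of each row) and wild-type neurons (lower point). Bars are 95% intervals of the limma fit, and filled points have an adjusted p under 0.05. Pcdh7, Pcdh9, Pcdh11x, Pcdh15 (10363921), Pcdh17 and Pcdh19 stand to the right of 0 in both genotypes, while the beta genes lie between −0.44 and 0.60.

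Signal level went along with class. Array features were sorted by their mean in WT Input, as a measure of how far a feature stands above the floor and not as a comparison of amounts between genes. WT Input is also the group subtracted in the WT difference, so the WT shares by band are not independent of the sorting. Of the 22 beta features 4 lay under 4, 15 between 4 and 5, 3 between 5 and 6, and 0 at 6 or more. Of the non-clustered features 1 lay under 4, 3 between 4 and 5, and 4 between 5 and 6. Among all features between 4 and 5, 5.61% were called higher in KO CLIP and 6.83% in WT CLIP, and between 5 and 6, 19.8% and 23.2%. Between 6 and 7 the shares were 33.5% and 35.3%, and at 7 or more 24.9% and 22.3%. Of the 18 protocadherin features between 4 and 5, 1 was called higher in KO CLIP and 2 in WT CLIP. Of the 8 between 5 and 6, 2 were called higher in each genotype, Pcdha10 and feature 10363921 of Pcdh15. Between 6 and 7 lay Pcdhga12 and 4 non-clustered features, of which 3 were called higher in KO CLIP and 4 in WT CLIP. At 7 or more lay 3 non-clustered features, and 3 of 3 were called higher in each genotype. Since no beta feature reached 6, class and signal level cannot be told apart for the non-clustered features at 6 or more. Under 6, where both classes lie, feature 10363921 of Pcdh15 was the only non-clustered one called higher, in both genotypes. The part of level in the class difference was not tested.

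Among the delta-1 genes, Pcdh9 has 2 features. Feature 10421932 read 9.02, 8.42, 8.48, 8.84 and 8.80 in KO CLIP and 8.19, 7.14, 8.28, 7.73 and 7.50 in KO Input. In WT it read 9.18, 8.51, 9.06, 9.11 and 9.23 in CLIP and 7.87, 7.66, 7.64, 8.44 and 8.03 in Input. All CLIP arrays stood above all Input arrays of the same genotype, and the difference was 0.95 in KO (SE 0.20, adjusted p = 0.00107) and 1.09 in WT (SE 0.20, adjusted p = 2.13e-04). Feature 10421924 read 8.37, 7.86, 7.99, 8.29 and 7.99 in KO CLIP and 7.62, 6.74, 7.72, 7.27 and 7.0 in KO Input. It read 8.42, 7.99, 8.41, 8.45 and 8.56 in WT CLIP and 7.31, 7.08, 7.35, 7.51 and 7.55 in WT Input. Here too the groups did not overlap. The differences were 0.83 in KO (SE 0.16, adjusted p = 5.14e-04) and 1.01 in WT (SE 0.16, adjusted p = 5.34e-05), so both features of the gene gave similar sizes.

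Pcdh11x, an X-linked gene, read 7.86, 7.27, 7.24, 7.79 and 7.94 in KO CLIP and 6.90, 6.09, 6.74, 6.21 and 6.08 in KO Input. In WT it read 7.83, 7.43, 7.64, 8.09 and 8.29 in CLIP and 7.31, 6.63, 6.11, 6.94 and 6.97 in Input. CLIP arrays lay above Input arrays without overlap in each genotype, with differences of 1.22 in KO (SE 0.22, adjusted p = 2.22e-04) and 1.06 in WT (SE 0.22, adjusted p = 6.63e-04). Pcdh7, which encodes a protein first known as brain-heart protocadherin, read 7.49, 7.06, 7.36, 7.72 and 7.20 in KO CLIP and 7.13, 6.09, 6.86, 6.44 and 6.47 in KO Input. It read 7.88, 7.18, 7.27, 7.92 and 7.95 in WT CLIP and 6.81, 6.79, 6.63, 6.84 and 6.92 in WT Input. The first KO Input array reached into the KO CLIP range, while the WT groups did not overlap. The difference was 0.77 in KO (SE 0.18, adjusted p = 0.00267) and 0.84 in WT (SE 0.18, adjusted p = 0.00104). Pcdh1 was the one delta-1 gene not called, at 0.06 in KO (adjusted p = 0.674) and 0.23 in WT (adjusted p = 0.13).

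Of the delta-2 genes, Pcdh17 and Pcdh19 were called in both genotypes. Pcdh17 is known from the assembly of presynaptic sites and from axon extension through WAVE. It read 9.38, 8.92, 8.97, 8.90 and 9.13 in KO CLIP and 8.69, 7.94, 8.63, 7.62 and 7.94 in KO Input. It read 9.61, 9.23, 8.67, 8.76 and 8.98 in WT CLIP and 8.48, 8.49, 7.66, 7.72 and 7.73 in WT Input. No Input array of either genotype reached its CLIP arrays, and the difference was 0.89 in KO (SE 0.22, adjusted p = 0.00354) and 1.04 in WT (SE 0.22, adjusted p = 8.6e-04).

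Pcdh19, whose loss causes an X-linked epilepsy in girls, read 8.37, 7.84, 7.70, 7.71 and 7.73 in KO CLIP and 7.78, 6.94, 7.86, 6.46 and 6.47 in KO Input. In WT it read 7.90, 7.94, 7.75, 7.86 and 7.99 in CLIP and 7.40, 6.52, 6.55, 7.14 and 7.18 in Input. The KO groups overlapped through Input arrays 1 and 3, and in KO culture 3 the CLIP minus Input difference was −0.16. The difference was 0.77 in KO (SE 0.24, adjusted p = 0.0181) and 0.93 in WT (SE 0.24, adjusted p = 0.00462). The KO call was lost without KO CLIP 1, KO Input 4 or KO Input 5, with an adjusted p of up to 0.0623.

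Pcdh10 is a synaptic adhesion gene of the delta-2 group that takes part in activity-driven removal of synapses, where its protein carries the scaffold PSD-95 to the proteasome, a process reported to fail in Fmr1 knockout neurons. Pcdh10 read 7.72, 7.60, 7.50, 6.98 and 7.51 in KO CLIP and 7.61, 6.95, 7.30, 6.73 and 7.37 in KO Input. It read 7.73, 7.28, 7.42, 7.25 and 7.57 in WT CLIP and 7.16, 6.87, 6.69, 7.04 and 7.17 in WT Input. The KO groups overlapped and the WT groups did not, although CLIP was higher than Input in 5 of 5 cultures of each genotype. Pcdh10 differed by 0.27 in KO (SE 0.16, adjusted p = 0.188) and by 0.46 in WT (SE 0.16, adjusted p = 0.0289). The WT call did not hold without WT CLIP 1, WT CLIP 5, WT Input 2 or WT Input 3, with an adjusted p of up to 0.0844. A call in 1 genotype does not show a difference between them, and the test of that difference gave −0.19 (95% interval −0.67 to 0.28, adjusted p = 1.0).

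The other delta-2 genes were not called. Pcdh8, also called arcadlin, is induced by neuronal activity and drives removal of N-cadherin from synapses through the kinase Taok2. Its 2 features gave different values: 10421863 differed by 0.30 in KO (adjusted p = 0.125) and 0.36 in WT (adjusted p = 0.0704), and 10416680 by 0.004 in KO (adjusted p = 0.98) and −0.05 in WT (adjusted p = 0.752). With culture as a block, feature 10421863 was called in WT, at an adjusted p of 0.0321. Pcdh18, which binds the reelin adaptor Dab1, differed by 0.19 in KO (adjusted p = 0.382) and 0.23 in WT (adjusted p = 0.304).

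Pcdh15 stands outside the delta groups and is known from the inner ear, where its protein forms the lower part of the tip links of hair cells and its loss causes Usher syndrome. Its 2 features moved apart. Feature 10363921 had the largest difference of the 39 features in both genotypes. It read 7.29, 6.61, 6.80, 6.16 and 7.16 in KO CLIP and 5.74, 4.79, 5.55, 4.90 and 5.48 in KO Input. It read 7.15, 6.63, 6.45, 6.75 and 6.85 in WT CLIP and 5.66, 5.00, 5.29, 5.06 and 5.33 in WT Input. CLIP lay above Input without overlap, by 1.51 in KO (SE 0.21, adjusted p = 1.09e-05) and 1.50 in WT (SE 0.21, adjusted p = 8.42e-06).

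Feature 10363915 of Pcdh15 read 4.87, 5.15, 5.16, 5.79 and 5.01 in KO CLIP and 5.38, 5.38, 5.34, 5.48 and 5.13 in KO Input. It read 4.90, 5.28, 5.57, 5.07 and 4.99 in WT CLIP and 5.15, 6.07, 6.19, 5.40 and 5.63 in WT Input. Both genotypes overlapped between CLIP and Input. The difference was −0.14 in KO (SE 0.19, adjusted p = 0.552) and −0.53 in WT (SE 0.19, adjusted p = 0.0337), with CLIP below Input in 5 of 5 WT cultures. The WT call did not hold without WT CLIP 1, 4 or 5 or WT Input 2 or 3, with an adjusted p of up to 0.111. Within a culture, the CLIP minus Input difference of the first feature exceeded that of the second by 0.94 to 2.06 in KO and by 1.74 to 2.41 in WT, in 10 of 10 cultures. Which Pcdh15 transcripts the 2 features cover is not given, and this difference was read off after the values were seen.

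**Figure D2:**
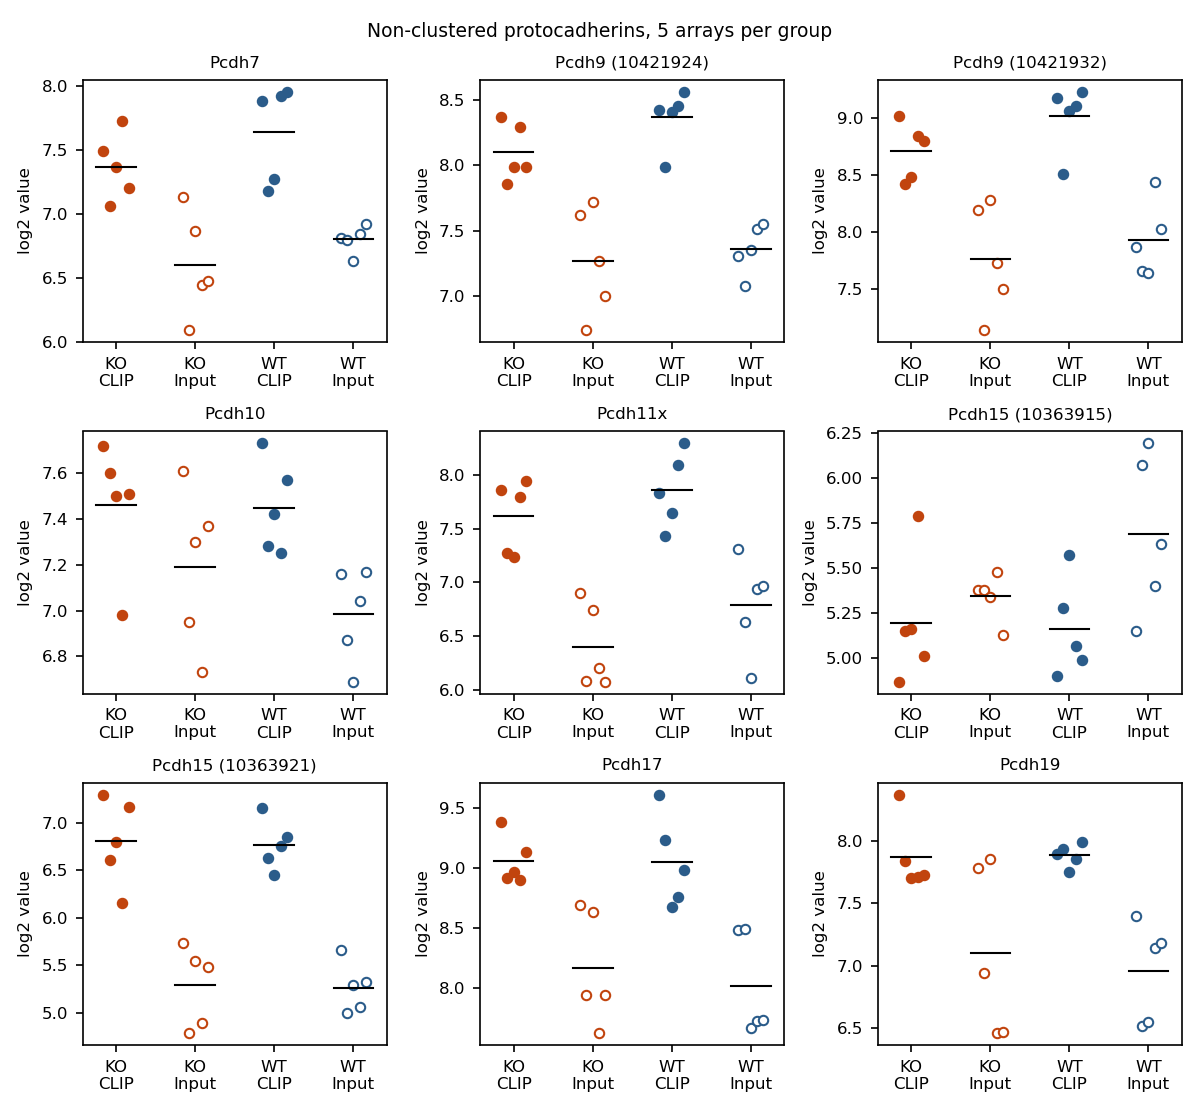
Log2 values of the 9 features of Pcdh7, Pcdh9, Pcdh10, Pcdh11x, Pcdh15, Pcdh17 and Pcdh19 in every array (5 points per group; horizontal line, group mean; filled, CLIP; open, Input; vertical axes differ between panels). The mean of CLIP stands above that of Input in both genotypes in every panel but that of Pcdh15 (10363915), where the WT CLIP mean is 5.16 and the WT Input mean 5.69.

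The remaining non-clustered genes, Pcdh12 and Pcdh20, were not called. Pcdh12, a gene of endothelial cells and their vessels, differed by −0.32 in KO (adjusted p = 0.129) and −0.02 in WT (adjusted p = 0.954). Pcdh20 differed by −0.09 in KO (adjusted p = 0.565) and 0.22 in WT (adjusted p = 0.145).

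In the clusters, Pcdha10 was higher in CLIP. Alpha protocadherins work in axon sorting and serotonergic projections. Pcdha10 read 6.31, 6.44, 6.40, 6.14 and 6.30 in KO CLIP and 6.07, 5.87, 5.84, 5.64 and 5.97 in KO Input. It read 6.20, 6.32, 6.13, 6.26 and 6.45 in WT CLIP and 5.88, 5.85, 5.54, 5.87 and 5.67 in WT Input. Every CLIP array stood above every Input array of its genotype, by means of 0.44 in KO (SE 0.10, adjusted p = 0.00193) and 0.51 in WT (SE 0.10, adjusted p = 4.26e-04). Pcdhga12 is the gamma feature, of the cluster whose proteins let sister dendrites avoid each other and keep interneurons alive. It differed by 0.19 in KO (adjusted p = 0.165) and 0.25 in WT (adjusted p = 0.0782). With 1 feature for each of these clusters, the values stand for the features and not for the clusters.

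Among the beta genes, the 2 highest differences in WT were those of Pcdhb20 and Pcdhb19, and the lowest those of Pcdhb9 and Pcdhb1. Pcdhb20 read 5.17, 5.10, 5.11, 5.07 and 5.21 in KO CLIP and 5.24, 4.79, 4.70, 3.89 and 4.75 in KO Input. It read 5.80, 4.99, 4.86, 5.13 and 5.24 in WT CLIP and 5.01, 4.42, 4.40, 4.40 and 4.78 in WT Input. Both genotypes overlapped. Pcdhb20 differed by 0.46 in KO (SE 0.20, adjusted p = 0.0732) and 0.60 in WT (SE 0.20, adjusted p = 0.021), and the WT call did not hold without WT CLIP 1 or WT Input 2, 3 or 4 (adjusted p up to 0.0778).

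Pcdhb19 read 4.94, 4.72, 5.67, 4.58 and 4.91 in KO CLIP and 5.06, 4.33, 4.52, 4.01 and 4.30 in KO Input. It read 5.14, 4.73, 4.16, 4.90 and 5.03 in WT CLIP and 4.25, 4.18, 4.22, 4.33 and 4.02 in WT Input. The WT groups overlapped through WT CLIP 3. Pcdhb19 differed by 0.52 in KO (SE 0.20, adjusted p = 0.0512) and 0.59 in WT (SE 0.20, adjusted p = 0.0279), and the WT call did not hold without WT CLIP 1, 4 or 5 or WT Input 5 (adjusted p up to 0.0811). With culture as a block, both genes were also called in KO, at an adjusted p of 0.0263 for Pcdhb19 and 0.0203 for Pcdhb20.

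The beta genes lower in CLIP were called in KO. Pcdhb1 read 3.51, 3.57, 3.78, 3.84 and 3.63 in KO CLIP and 3.53, 3.86, 4.19, 4.32 and 4.62 in KO Input. Its difference was −0.44 in KO (adjusted p = 0.0342) and −0.24 in WT (adjusted p = 0.255). The call in KO did not hold without KO CLIP 1, 2 or 5 or KO Input 3, 4 or 5 (adjusted p up to 0.112). Pcdhb13 read 4.60, 4.59, 4.54, 4.48 and 4.47 in KO CLIP and 4.70, 5.03, 4.85, 4.62 and 4.93 in KO Input, with no overlap. It differed by −0.29 in KO (adjusted p = 0.0237) and −0.07 in WT (adjusted p = 0.607), and the call did not hold without KO CLIP 5 or KO Input 2 or 5 (adjusted p up to 0.0708). Quantile normalization, which moved the median of all features in this comparison closer to 0, ended both calls, at an adjusted p of 0.273 for Pcdhb1 and 0.285 for Pcdhb13. Pcdhb9 differed by −0.27 in KO (adjusted p = 0.305) and −0.36 in WT (adjusted p = 0.189).

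**Figure D3:**
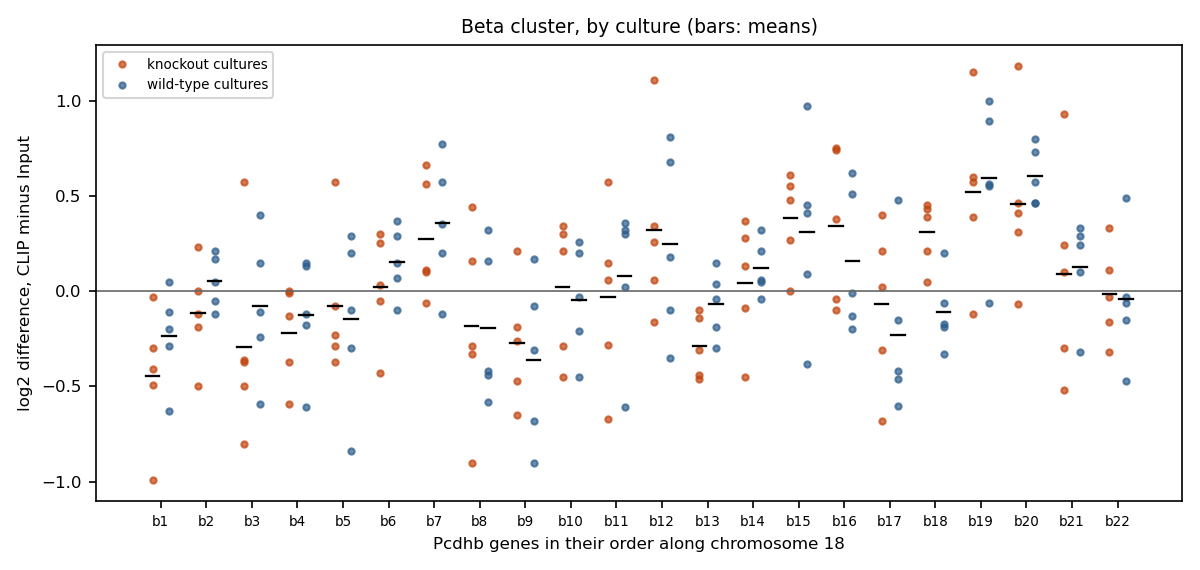
CLIP minus Input (log2) of the 22 beta features in each culture, with knockout cultures to the left and wild-type cultures to the right of each position, in the order of the genes along chromosome 18. Black bars are means of 5 cultures, and the points of most genes lie on both sides of 0.

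Along the cluster, Pcdhb1 to Pcdhb14 had medians of −0.097 in KO (5 above 0 and 9 below) and −0.06 in WT (6 above and 8 below). Pcdhb15 to Pcdhb22 had medians of 0.33 in KO (6 above and 2 below) and 0.14 in WT (5 above and 3 below). This division was chosen after the values were seen, so it has no test. The 2 genotypes, which share no array here, gave like orders of the members: the CLIP minus Input differences of KO and WT correlated over the 39 features with r = 0.938 (rho = 0.89), over the 22 beta features with r = 0.83 (rho = 0.823) and over the 15 non-clustered ones with r = 0.948 (rho = 0.968). Over all 24551 features r was 0.913 (rho = 0.851). The points share probes and signal level, and no p is given.

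The comparison of genotypes within CLIP asks which RNAs were recovered through FMRP. No protocadherin feature was called between KO CLIP and WT CLIP (0 of 39 by limma, 1 at an unadjusted p under 0.05), where 0.11% of all features were called and 7.15% had an unadjusted p under 0.05. The differences, KO minus WT, ran from −0.31 to 0.28 with a median of 0.01, against −0.02 for all features. The lowest adjusted p was 0.406. In 0 of 39 features did the 2 groups of CLIP arrays stand apart without overlap, as they did for 1.66% of all features.

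The lowest p belonged to Pcdhb2, which read 4.91, 4.66, 4.80, 4.47 and 4.75 in KO CLIP and 5.03, 5.01, 4.89, 5.00 and 5.24 in WT CLIP. The ranges overlapped at KO CLIP 1 and WT CLIP 3. Pcdhb2 differed by −0.31 (95% interval −0.53 to −0.10, adjusted p = 0.406). An exact permutation test gave an unadjusted two-sided p of 0.0159, where 0.00794 is the smallest it can give. In Input, KO read 4.91, 4.78, 4.99, 4.97 and 4.53, and WT read 5.16, 5.06, 4.68, 4.95 and 5.06, a difference of −0.145 (adjusted p = 1.0). The next clustered features by p were Pcdhb18, at 0.15 (adjusted p = 0.903), and Pcdhb14, at 0.125 (adjusted p = 0.996).

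Of the non-clustered features enriched in both genotypes, those of the delta-1 group were lower in mean in KO CLIP, and none passed the test. Pcdh9 differed by −0.31 (feature 10421932, 95% interval −0.64 to 0.03, adjusted p = 0.771) and −0.27 (feature 10421924, 95% interval −0.55 to 0.02, adjusted p = 0.741). Pcdh7 differed by −0.27 (95% interval −0.66 to 0.12, adjusted p = 0.907) and Pcdh11x by −0.24 (95% interval −0.64 to 0.17, adjusted p = 0.956). The same genes in Input, KO minus WT, gave −0.16 and −0.09 for the 2 features of Pcdh9, −0.20 for Pcdh7 and −0.39 for Pcdh11x, each at an adjusted p of 1.0. For these genes the KO mean was the lower one in both fractions, and the arrays of the genotypes overlapped.

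The delta-2 genes Pcdh17, Pcdh19 and Pcdh10 and both features of Pcdh15 differed by at most 0.04 in either direction between the CLIP groups. Pcdh17 differed by 0.01 (95% interval −0.36 to 0.38), Pcdh19 by −0.02 (−0.29 to 0.25) and Pcdh10 by 0.01 (−0.295 to 0.32). Feature 10363921 of Pcdh15 differed by 0.04 (−0.40 to 0.48) and feature 10363915 by 0.04 (−0.34 to 0.41). These intervals leave room for differences of about the size of those of Pcdh9, so equal recovery is not shown. Pcdh18 had the highest difference, 0.28 (−0.06 to 0.61, adjusted p = 0.818). Pcdh1 differed by 0.12 (adjusted p = 0.945), Pcdh12 by −0.09 (adjusted p = 0.999), Pcdh20 by −0.14 (adjusted p = 0.958), and Pcdh8 by 0.16 (10421863, adjusted p = 0.973) and −0.001 (10416680, adjusted p = 1.0).

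**Figure D4:**
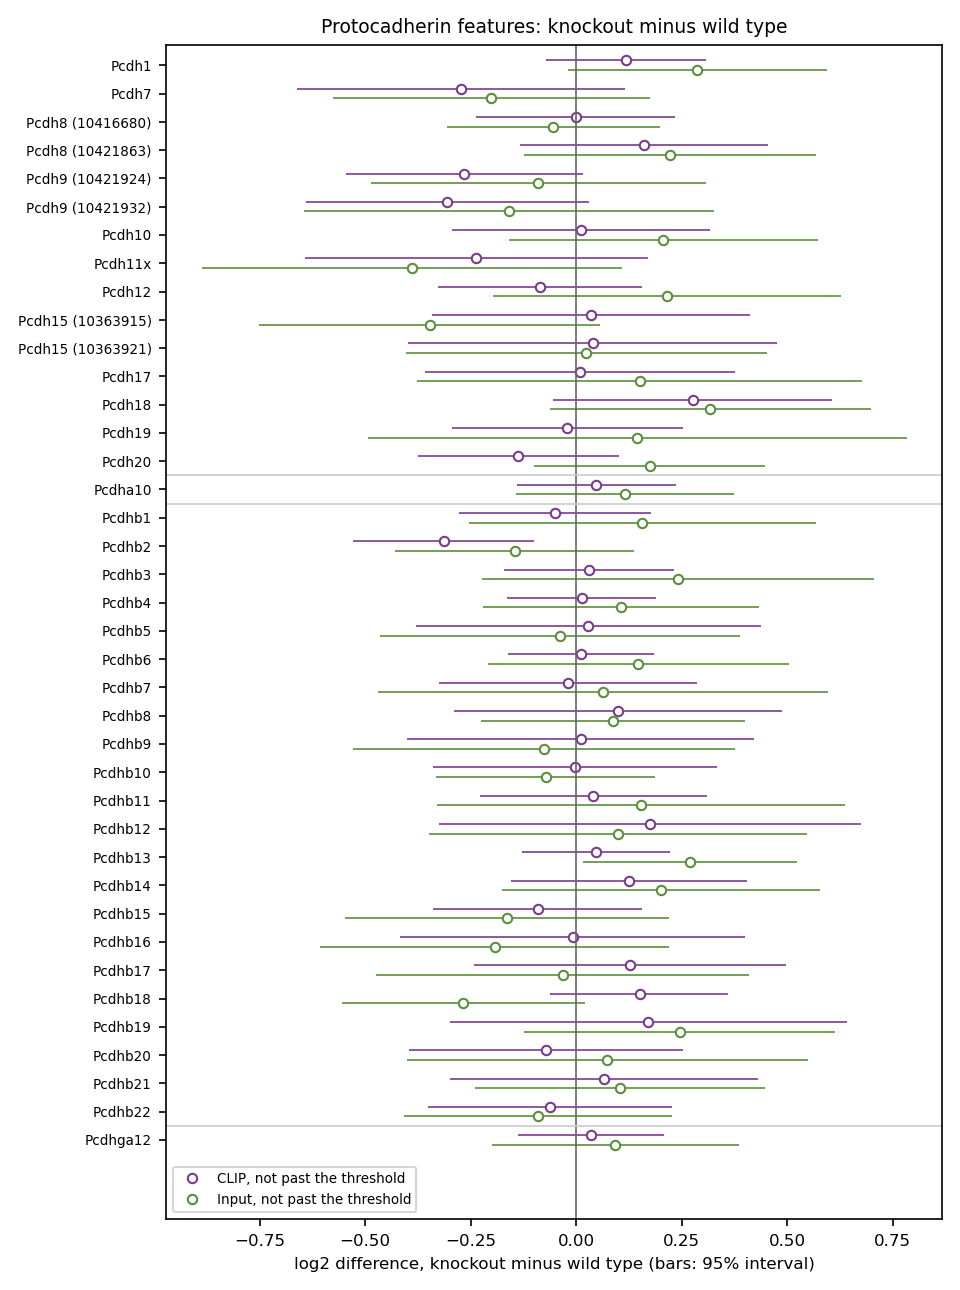
Log2 difference, knockout minus wild type, of the 39 protocadherin features in CLIP (upper point of each row) and Input (lower point), with 95% intervals of the limma fits. Open points did not pass an adjusted p of 0.05, and all points are open. The points lie between −0.39 and 0.32.

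Total RNA was compared in the same way. No protocadherin was called between KO Input and WT Input (0 of 39 by limma, 1 at an unadjusted p under 0.05), where 0.00407% of all features, or 1 feature, were called and 3.86% had an unadjusted p under 0.05. The differences ran from −0.39 to 0.32 with a median of 0.09, against 0.01 for all features, and every adjusted p was 1.0. That median rested on single arrays: it was 0.011 without KO Input 1, 0.034 without KO Input 3 or without WT Input 2, 0.043 without WT Input 3 and 0.15 without KO Input 4. The 2 groups of Input arrays stood apart without overlap for 0 of 39 features, as they did for 0.697% of all features. Pcdhb13 had the lowest p, with 4.70, 5.03, 4.85, 4.62 and 4.93 in KO Input and 4.55, 4.64, 4.53, 4.70 and 4.37 in WT Input. KO Input 1 and 4 reached into the WT range, and the difference was 0.27 (95% interval 0.02 to 0.52, exact permutation p = 0.0317, two-sided). Pcdhb18 differed by −0.27 (exact permutation p = 0.0635) and Pcdhb19 by 0.245 (exact permutation p = 0.222).

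Among the non-clustered genes, Pcdh11x had the lowest KO minus WT difference in Input, −0.39 (95% interval −0.89 to 0.11). It read 6.90, 6.09, 6.74, 6.21 and 6.08 in KO and 7.31, 6.63, 6.11, 6.94 and 6.97 in WT. Pcdh18 had the highest difference, 0.32 (95% interval −0.06 to 0.70), followed by Pcdh1 at 0.29 (−0.02 to 0.59). The second Pcdh15 feature, 10363915, differed by −0.35 (−0.75 to 0.06), while the first differed by 0.02. Pcdh17 differed by 0.15, Pcdh19 by 0.145, Pcdh10 by 0.21, Pcdh12 by 0.215, Pcdh20 by 0.17, and Pcdh8 by 0.22 (10421863) and −0.05 (10416680). The spread between Input arrays was wide for some of these genes, with an SD of 0.68 for Pcdh19 and 0.47 for Pcdh17 in KO Input.

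Whether CLIP over Input differs by genotype was tested as an interaction, the KO difference minus the WT difference. No protocadherin was called (0 of 39 by limma, 1 at an unadjusted p under 0.05), where 0.0204% of all features were called and 4.46% had an unadjusted p under 0.05. The culture differences of the genotypes stood apart for 0 of 39 features, against 1.05% of all features. The values ran from −0.31 to 0.42 with a median of −0.07, against −0.025 for all features. Of the 39, 25 lay below 0 and 14 above, and of all features 13586 lay below and 10965 above. The median of the 39 varied with single arrays: it was 0.004 without KO Input 1, −0.011 without KO Input 3 and −0.134 without KO Input 4. With median centring it was −0.021. For the features enriched in both genotypes the values were −0.07 for Pcdh7, −0.18 and −0.15 for Pcdh9 (10421924 and 10421932), 0.15 for Pcdh11x, 0.015 for Pcdh15 (10363921), −0.14 for Pcdh17, −0.165 for Pcdh19 and −0.07 for Pcdha10. Their 95% intervals all held 0, the widest being −0.88 to 0.55 for Pcdh19.

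Pcdhb18 had the lowest p of the interaction. It read 4.45, 4.08, 4.14, 4.35 and 4.39 in KO CLIP and 4.0, 3.65, 3.94, 3.95 and 4.34 in KO Input. It read 4.18, 4.14, 4.05, 3.99 and 4.30 in WT CLIP and 4.37, 4.20, 4.38, 4.17 and 4.10 in WT Input. CLIP lay above Input in 5 of 5 KO cultures and below it in 4 of 5 WT cultures, by means of 0.31 in KO (adjusted p = 0.0418) and −0.11 in WT (adjusted p = 0.479). The interaction was 0.42 (SE 0.16, 95% interval 0.08 to 0.76, adjusted p = 1.0). An exact permutation test over the cultures gave p = 0.0159, two-sided and not adjusted for the choice of this feature by its lowest p. The call in KO did not hold without KO CLIP 1, 4 or 5 or KO Input 2, 3 or 4 (adjusted p up to 0.133). The values of Pcdhb18 lay under 4.5 in all 20 arrays. Pcdhb13 followed at −0.22 (exact permutation p = 0.0794) and Pcdhb2 at −0.17 (exact permutation p = 0.262). Among the non-clustered genes, feature 10363915 of Pcdh15 had an interaction of 0.38 (exact permutation p = 0.0476), Pcdh20 of −0.31 (exact permutation p = 0.111) and Pcdh12 of −0.30 (exact permutation p = 0.222), each at an adjusted p of 1.0.

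Genes that work around the protocadherins were counted from lists drawn up from general knowledge. The shares of all features set beside each list were not matched to it for signal level, with which called shares varied. The first holds regulators that choose promoters of the clusters, such as the insulator protein CTCF, cohesin and DNA methyltransferases, with 23 features of 19 of its 21 listed symbols. Of these, 19 were higher and 0 lower in CLIP than in Input in KO and again in WT, with medians of 0.875 in KO and 0.92 in WT. Of all features, 16.2% were called higher and 19.7% lower in KO, and 17% higher and 17.9% lower in WT, with medians of −0.13 in KO and −0.095 in WT. The cohesin subunit gene Smc1a differed by 1.70 in KO and 1.41 in WT, and 1 feature of Tet1, the gene of an enzyme that oxidises methylated cytosine, by 1.67 in KO and 1.79 in WT. None of the 23 features was called between genotypes in CLIP, where the lowest adjusted p was 0.566, in Input or in the interaction.

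The second list holds binding partners and signalling proteins, with 37 features of 33 symbols. Of these, 17 were higher and 4 lower in KO CLIP than in KO Input, with a median of 0.315, and 12 were higher and 3 lower in WT, with a median of 0.31. The shares of all features called higher were 16.2% in KO and 17% in WT, and called lower 19.7% and 17.9%, with medians of −0.13 in KO and −0.095 in WT. Dscam, a surface protein that like the gamma protocadherins serves self-avoidance, differed by 1.48 in KO and 2.16 in WT, and Wasf3 of the WAVE complex by 1.19 in KO and 1.27 in WT. Ppp1ca, the catalytic subunit gene of protein phosphatase 1, was lower in KO CLIP than in KO Input, at −0.93. In WT it was not among the 3 features of lowest p of the list. Between genotypes in CLIP the lowest adjusted p of the list was that of Dscam, at −0.63 (adjusted p = 0.104), so 0 of 37 were called.

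The third list holds other cadherins and catenins, with 30 features of 28 symbols. Of these, 9 were higher and 2 lower in KO CLIP than in KO Input, with a median of 0.14, and 12 were higher and 1 lower in WT, with a median of 0.28. Here too the background was 16.2% of all features higher and 19.7% lower in KO, and 17% higher and 17.9% lower in WT, with medians of −0.13 in KO and −0.095 in WT. The delta-catenin gene Ctnnd2 differed by 0.93 in KO and 1.11 in WT, and Ctnna2, the neuronal alpha-catenin, by 0.56 in KO and 0.67 in WT. Between genotypes in CLIP, Cdh22 had the lowest adjusted p of the list, at −0.46 (adjusted p = 0.135), and 0 of 30 were called.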

How the data were processed

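Cortical neuron RNA of 20 arrays, 5 in each of 4 groups, was analysed. Per the submitters' processing notes, the authors made the deposited log2 values with RMA in Affymetrix Expression Console 1.1, and the design text also names the Exon Array Computational Tool. No source used here names the genome build. Of 24558 lines, 7 at the foot were left out. Members were the rows whose symbol starts with Pcdh. The test was that of limma 3.58.1 under R 4.3.3 (lmFit, then eBayes, two-sided, Benjamini-Hochberg over 24551 features, adjusted p under 0.05). Genotypes were compared on the 10 arrays of a fraction, and CLIP minus Input and the interaction came from 1 fit of 20 arrays. That fit held 4 group means and no term for culture, so pairs of arrays entered only under the replicate block. Exact permutation tests ran over 252 splits of 5 against 5, for each feature alone, and their p was not adjusted over features. The fits were checked on simulated data. Tables and figures were made in Python 3.11.15 (scipy 1.17.1, numpy 2.4.6, pandas 2.3.3, with matplotlib 3.10.9 for drawing).

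CLIP and Input of a genotype and number were taken as 1 culture, since the authors' deposited ratio columns (log2) equal their difference (10 columns, largest deviation 8.9e-16). Residuals of such pairs correlated at 0.221, −0.128, 0.224, 0.455 and 0.0688 in KO and 0.243, 0.26, 0.259, 0.0908 and 0.0599 in WT. KO and WT arrays of a number also had correlated residuals in part. The values for numbers 1 to 5 were 0.442, 0.19, −0.139, −0.0852 and −0.0748 in CLIP. In Input they were 0.547, 0.362, −0.266, −0.144 and −0.058. The 5 cultures of a group limit the precision.

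Named with values were all non-clustered genes, the 3 clustered features of lowest p in each genotype comparison and the interaction, the 2 highest and lowest of each cluster in WT CLIP minus Input, and up to 3 genes per further list. The beta features lower in KO CLIP, Pcdhb1 and Pcdhb13, were named for their calls as well. Members and lists were chosen with earlier results of these data known. Alternatives were median centring, quantile normalization, a filter on dim features, an intensity trend, 1 value per symbol, a replicate block and leaving out each array. Mau2, Wapl and Brk1 had no row under these names, and the neuron markers Map2 and Rbfox3 were not used here.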

Additional observations from a re-analysis of the deposited data

Results flagged for a closer look

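In 10 of 156 groups of 5 arrays, 1 array stood away from the other 4 by more than 0.71 of the group's range, where chance alone gives about 1 in 20, or 7.8 groups. Of the genes enriched in CLIP, both features of Pcdh9 were low in WT CLIP 2, at 7.99 against 8.41 to 8.56 (10421924) and at 8.51 against 9.06 to 9.23 (10421932). Pcdh19 was high in KO CLIP 1, at 8.37 against 7.70 to 7.84. The 2 features of Pcdh8 had 1 such array each, WT CLIP 3 at 5.81 against 6.11 to 6.19 (10421863) and WT Input 4 at 5.04 against 4.62 to 4.70 (10416680).

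Of the beta genes, Pcdhb11 and Pcdhb14 were low in KO CLIP 4, at 3.97 against 4.42 to 4.58 and at 3.60 against 4.12 to 4.28. Pcdhb3 was low in KO CLIP 5, at 3.96 against 4.21 to 4.31. Pcdhb8 was low in KO Input 1, at 5.29 against 5.72 to 5.82, and Pcdhb9 was high in WT Input 1, at 5.30 against 4.28 to 4.45. The cause of these values was not tested.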

How the results depend on the processing

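No protocadherin was called between genotypes in CLIP, in Input or in the interaction under any alternative run (0 features by limma each time). The lowest adjusted p when single arrays were left out was 0.304 in CLIP, 0.732 in Input and 0.69 in the interaction. With the replicate number as a block (culture in the interaction), these counts stayed at 0, with lowest adjusted p of 0.417, 0.85 and 0.68. What KO and WT arrays of a number shared beyond that number was not tested. Over all features, the 27 calls of the CLIP genotype comparison became 8 with median centring, 16 with quantile normalization, 12 with an intensity trend and 3 with the block. With 1 array left out they ranged from 4 (without WT CLIP 5) to 61 (without WT CLIP 2). The 11 protocadherins called in KO CLIP minus KO Input became 10 to 13 under the alternatives on all arrays and 8 to 13 with 1 array left out. The 12 called in WT became 10 to 13, and 8 to 14 with 1 array left out. Pcdha10, Pcdh7, Pcdh9, Pcdh11x, Pcdh17 and feature 10363921 of Pcdh15 were called in both genotypes in 10 of 10 such fits. With culture as a replicate block, 13 were called in each genotype, and no call was lost. Pcdh10 was not called in WT with median centring (adjusted p = 0.057) or quantile normalization (adjusted p = 0.169), nor Pcdhb19 with median centring (adjusted p = 0.05). Pcdhb19 was called in KO with quantile normalization, the filter, the trend, 1 value per symbol and the block (adjusted p 0.0263 to 0.0492). Pcdh20 was called in WT with quantile normalization (0.385, adjusted p = 0.033), and Pcdhb15 in KO with median centring (0.40, adjusted p = 0.0363). Averaging the features of a symbol turned the WT value of Pcdh15 feature 10363915 to 0.49, since it is then averaged with the other feature. Quantile normalization moved the median of all features in CLIP minus Input to −0.02 in KO and −0.01 in WT. Signals near the floor limit what can be seen of most beta genes.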

Other observations

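Among the 7 non-clustered features called in both genotypes, KO Input 1 and KO Input 3 were the 2 highest of the 5 KO Input arrays for 7 of 7 features. Other groups held such arrays too. KO CLIP 1 was among the 2 highest of its group for 7 of 7 features, and WT CLIP 3 among the 2 lowest for 7 of 7. Some arrays were less uniform: KO CLIP 4 was among the 2 highest of its group for 3 features and among the 2 lowest for 3 others. The mean of the 7 features was 7.44, 6.53, 7.38, 6.66 and 6.71 in KO Input arrays 1 to 5, and the mean of the neuron markers in the same arrays was 7.81, 7.18, 7.88, 7.60 and 7.81. In WT Input the 7 features averaged 7.26, 6.88, 6.75, 7.09 and 7.10, and the neuron markers 7.86, 7.24, 7.77, 7.59 and 7.64. Array KO Input 5 was high in neuron markers and low in these protocadherins. In the precipitates the 7 features averaged 8.25, 7.71, 7.79, 7.92 and 7.99 in KO CLIP and 8.28, 7.84, 7.89, 8.13 and 8.26 in WT CLIP. The part of culture makeup in this was not tested.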
